A study of Mus musculus with 7 samples.

Results

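Hox genes encode homeodomain transcription factors that give cells of the trunk and limbs their position along the body axis. They lie in 4 clusters, Hoxa to Hoxd, and genes of the same paralogue number in different clusters descend from a common ancestor. Low numbers are used towards the head and high numbers towards the tail and the ends of the limbs. Fibroblasts keep part of the Hox pattern of the site they came from in culture, and the pattern is held by Polycomb repression and Trithorax activation. The Hox genes were taken as the probe sets whose platform symbol is Hox followed by a cluster letter and a paralogue number. There were 33 such probe sets, 1 per gene, among 19505 genes with a symbol: 8 in Hoxa, 9 in Hoxb, 9 in Hoxc and 7 in Hoxd. All 33 matched the RefSeq gene table of GRCm38.p6 by Entrez identifier. Hox genes without such a probe set were not analysed here.

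The series asked how the form of Mef2c given to mouse embryonic fibroblasts (MEFs) with Gata4 and Tbx5 (GT) shapes reprogramming towards cardiac muscle. Expression was measured on the Clariom S mouse array, a 1-colour array of annotated transcripts, as log2 signal. The MEF array held fibroblasts given no treatment. Fibroblasts given retroviruses for Gata4, Tbx5 and Mef2c isoform 1 (GT/M1), 2 (GT/M2) or 6 (GT/M6) gave 3 arrays. The GT/M2TAD array had isoform 2 fused to the transactivation domain of MyoD. The siCtrl and siEp300 arrays had, besides the viruses, small interfering RNA (siRNA) of a control sequence or against Ep300, the gene of the acetyltransferase p300. The labels of both siRNA samples conflict, with GT/M2 in the title and GT/M2TAD in the other fields, so they are called siCtrl and siEp300 only. Transduced cells were collected at 1 week. The labels give neither strain, embryonic age nor body region of the MEFs, no array carried virus without the factors, and no harvest time is given for MEF. In a difference from MEF, the factors, the infection and the days in culture cannot be told apart. Each of the 7 groups was 1 array, so no difference below has a replicate check, an error or a p-value.

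Hox signals were low on these arrays. The 95th percentile of 5222 negative-control probes, taken as the background limit, lay between 8.43 and 9.33 on the log2 scale. Between 23.7% and 29.6% of all genes reached it. Of the 33 Hox genes, 0 reached it on MEF, 1 on each of the 4 transduced arrays without siRNA and 2 on each siRNA array. The gene above it on 6 arrays was Hoxc6, and Hoxc8 joined it on siCtrl and siEp300. The other 31 stayed below it on all 7 arrays, as did 66.0% of all genes. Against the median of the negative controls, a weaker mark, 7 Hox genes were above on every array, as were 47.8% of all genes: Hoxa2, Hoxa4, Hoxa5, Hoxb7, Hoxc6, Hoxc8 and Hoxd8. A further 8 were above it on some arrays, and 18 on none, beside 37.7% of all genes on none. Genes of central paralogue number (5 to 8) made up 5 of those 7, and of the 15 genes of posterior number (9 to 13) 12 were below the negative-control median on every array. Most Hox signals below are therefore of the size of background. The probes' positions are not known here, so whether a probe set also reads a paralogue was not tested. Arrays of mixed cells cannot tell fewer cells of a type from less RNA per cell.

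Differences were read by a rule of size. To count as at least 2-fold apart, a gene needed a log2 difference of 1 or more, up or down, and a higher signal that reached the median over all genes on its array, which lay between 5.38 and 5.71. Only 9 or 10 of the 33 Hox genes reached that floor in any comparison with MEF. On at least 1 of the 7 arrays 10 of the 33 reached that median, beside 56.2% of all genes.

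Of the 5 Hox genes at least 2-fold apart from MEF, Hoxa2 and Hoxd8 had an upstream sequence in the RefSeq table of GRCm38.p6. Those sequences are shown with that of Hoxd3os1, an antisense transcript of the Hoxd cluster that was higher on all 6 transduced arrays. Each is the 250 bases before the listed start, 5′ to 3′ on the gene's strand. Capitals mark matches on either strand to TGATTNAT (a Hox-Pbx site), GATAA (GATA factors), AGGTGT (T-box factors), CTA and TAG with 4 bases of any kind between them (MEF2) or AGGTCA (one arm of the site of nuclear receptors such as the retinoic acid receptor).
Hoxa2, chr6:52164832-52165081, minus strand: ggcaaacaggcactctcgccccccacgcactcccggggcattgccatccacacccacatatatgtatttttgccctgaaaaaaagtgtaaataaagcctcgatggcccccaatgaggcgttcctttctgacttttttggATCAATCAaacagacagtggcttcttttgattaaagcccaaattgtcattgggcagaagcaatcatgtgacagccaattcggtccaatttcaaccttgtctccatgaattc
Hoxd8, chr2:74704365-74704614, plus strand: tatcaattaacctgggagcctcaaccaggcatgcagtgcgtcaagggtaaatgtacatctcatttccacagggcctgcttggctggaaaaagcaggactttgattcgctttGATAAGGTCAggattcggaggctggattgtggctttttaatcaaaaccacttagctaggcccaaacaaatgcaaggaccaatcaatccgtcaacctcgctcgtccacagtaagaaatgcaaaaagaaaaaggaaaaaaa
Hoxd3os1, chr2:74716131-74716380, minus strand: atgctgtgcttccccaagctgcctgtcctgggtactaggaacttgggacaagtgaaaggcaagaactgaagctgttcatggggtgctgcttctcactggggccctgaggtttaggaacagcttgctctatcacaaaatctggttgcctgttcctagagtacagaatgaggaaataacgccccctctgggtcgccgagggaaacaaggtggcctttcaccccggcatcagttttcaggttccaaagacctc

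The Hoxa2 window held 1 match to the Hox-Pbx letters, 111 to 104 bases before the start. The Hoxd8 window held the GATA letters at 139 to 135 and the AGGTCA letters at 135 to 130 bases before the start, and these matches overlap. The Hoxd3os1 window held none of the 5 motifs. Windows were at hand for 17 of the 33 Hox genes, 19 windows in all. TGATTNAT was in 2 of those 19, against 2.82% of 32851 windows of all genes. GATAA was in 4 against 22.6%, AGGTGT in 2 against 11.8%, the MEF2 letters in 1 against 3.20% and AGGTCA in 3 against 14%. A match describes letters only.

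Hoxc6, a central gene used in the thorax and forelimb region, was the Hox gene at least 2-fold higher than MEF on all 6 transduced arrays. Its signal was 8.76 on MEF, 10.05, 9.82 and 10.54 with isoforms 1, 2 and 6, 10.06 on GT/M2TAD, 10.79 on siCtrl and 11.01 on siEp300. MEF was lowest and both siRNA arrays were highest. The log2 differences from MEF were 1.29, 1.05, 1.78, 1.30, 2.03 and 2.24 in that order, or 2.08-fold on GT/M2 to 4.74-fold on siEp300. Over all genes, 6.28% were at least 2-fold higher than MEF on all 6 arrays, and 4.74% at least 2-fold lower on all 6, where the Hox count was 0. The Hox share, 3.03%, rests on 1 gene of 33 and was not tested against that of all genes. After median centring the difference on GT/M2 was 0.73 and that on GT/M1 was 0.98, both under 2-fold.

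Hoxc8, its neighbour in the cluster and also used in the trunk, gave 7.16 on MEF, 8.34, 8.11 and 8.82 with isoforms 1, 2 and 6, 8.69 on GT/M2TAD, 9.46 on siCtrl and 9.68 on siEp300. Again the MEF array was lowest and the siRNA arrays highest, and these were the arrays on which it was above background. Its log2 differences from MEF were 1.18, 0.95, 1.66, 1.53, 2.30 and 2.51. The difference on GT/M2 was just under 2-fold, at 1.93-fold, and that on siEp300 was 5.72-fold. After median centring Hoxc8 was at least 2-fold higher than MEF on 4 of the 6 transduced arrays, GT/M1 and GT/M2 being under 2-fold. Its lowest difference was 0.63 after median centring, 0.56 after quantile normalization and 0.62 after level-dependent centring. Hoxc6 and Hoxc8 put the 7 arrays in the same order: MEF, GT/M2, GT/M1, GT/M2TAD, GT/M6, siCtrl, siEp300. No other Hox gene had that order, and 0.128% of all genes (25 of 19505, these 2 included) did. The order was compared after the values were seen.

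**Figure D1:**
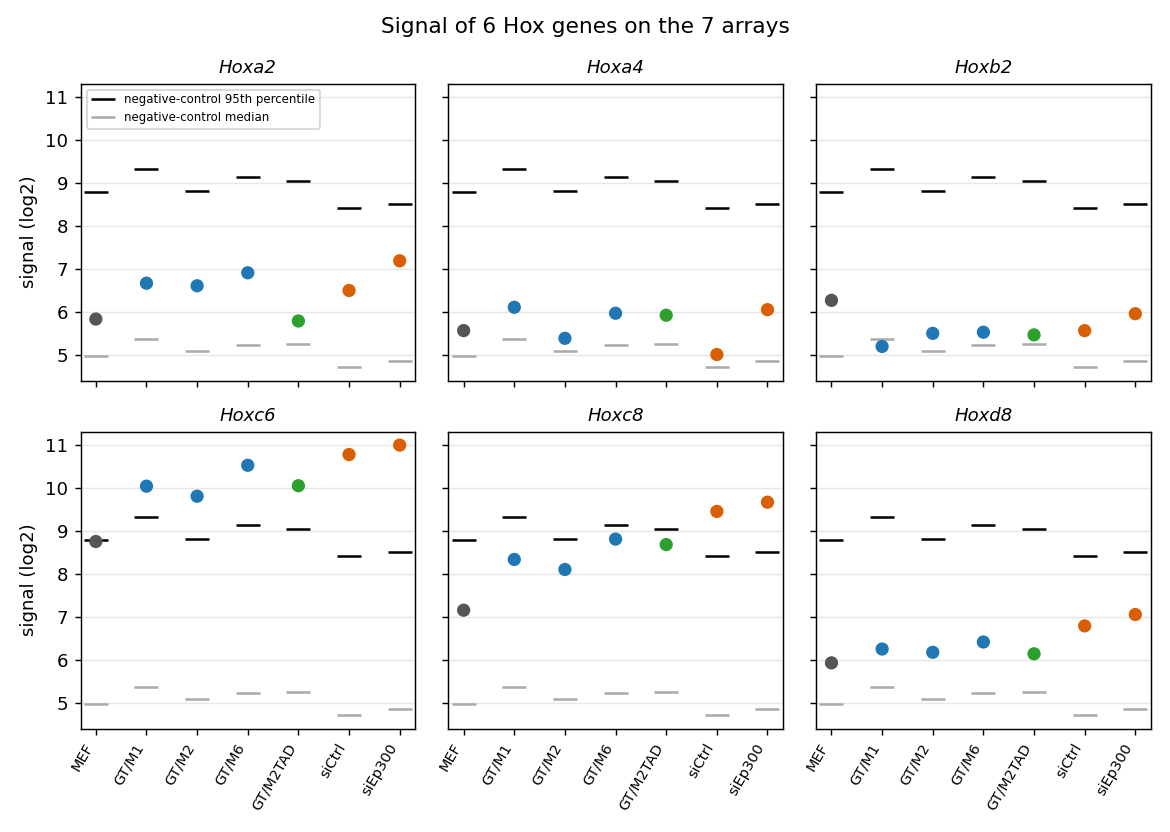
Log2 signal (vertical axis) of the 6 Hox genes that reached the background limit or were at least 2-fold apart from MEF or between the siRNA arrays, on each of the 7 arrays (horizontal axis, 1 point per array: grey MEF, blue native isoforms, green GT/M2TAD, orange siRNA). Black dashes are the negative-control 95th percentile and grey dashes the negative-control median; Hoxc6 and Hoxc8 are lowest on MEF and highest on siEp300, and the other 4 genes lie below the black dashes throughout.

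The other 7 Hoxc genes were not 2-fold apart from MEF by the rule. Hoxc9, next to Hoxc8, was 0.28 to 0.99 above MEF on the 6 arrays, from 4.63 on MEF to 5.62 on GT/M6. Hoxc5, next to Hoxc6, was at 4.21 on MEF, between 3.30 and 4.22 without siRNA and at 5.01 (siCtrl) and 5.04 (siEp300) with it. Hoxc10 was at 5.22 on MEF, between 4.63 and 5.42 without siRNA and at 5.68 and 5.64 with it. Hoxc4, Hoxc11, Hoxc12 and Hoxc13 stayed between 2.46 and 4.69 on all 7 arrays.

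In the Hoxd cluster, Hoxd8 was at 5.94 on MEF, 6.26, 6.18 and 6.42 with isoforms 1, 2 and 6, 6.15 on GT/M2TAD, 6.80 on siCtrl and 7.06 on siEp300. It was at least 2-fold above MEF on siEp300 only, at 1.13, which was 0.86 to 0.89 and so under 2-fold in the 3 other scalings. It was below MEF on 2 of the 6 arrays after median centring, quantile normalization or level-dependent centring. Hoxd10, which patterns the hindlimb and lumbar region, had larger differences at lower signal. It was at 2.62 on MEF, 3.77, 4.92 and 4.46 with isoforms 1, 2 and 6, 4.11 on GT/M2TAD, 3.86 on siCtrl and 4.11 on siEp300. Its differences from MEF, 1.14 to 2.30, were not counted, since every signal lies below the floor, the median over all genes. All 7 also lie below the negative-control median. Hoxd11 was 0.55 to 1.32 and Hoxd9 0.31 to 0.84 above MEF, also below that median. Hoxd1, Hoxd12 and Hoxd13 were between 2.44 and 3.97 on all arrays, with differences of both signs.

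Among Hoxa genes, Hoxa2, which patterns the hindbrain and the second pharyngeal arch, was at 5.84 on MEF, 6.67, 6.61 and 6.92 with isoforms 1, 2 and 6, 5.79 on GT/M2TAD, 6.51 on siCtrl and 7.20 on siEp300. MEF and GT/M2TAD were the low arrays. It was at least 2-fold above MEF on GT/M6, at 1.08, and on siEp300, at 1.36. The first was 0.72 to 0.81, under 2-fold, in the 3 other scalings. Hoxa5, a regulator of lung and thoracic skeleton, was at 6.76 on MEF, 6.24 on GT/M2TAD, 7.07 to 7.24 on the native isoforms and 7.51 and 7.61 on siCtrl and siEp300. GT/M2TAD was again lowest. Hoxa4 ranged from 5.01 on siCtrl to 6.11 on GT/M1, with 5.57 on MEF, 5.39 on GT/M2, 5.98 on GT/M6, 5.93 on GT/M2TAD and 6.06 on siEp300. Hoxa10, a posterior gene, ranged from 4.85 on GT/M2 to 6.08 on siEp300. Hoxa3 was between 4.14 and 5.39, and Hoxa6, Hoxa11 and Hoxa13 were between 2.54 and 3.98.

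Hoxb genes gave the one lower call. Hoxb2, which patterns the hindbrain beside Hoxa2, was at 6.27 on MEF, 5.20, 5.51 and 5.53 with isoforms 1, 2 and 6, 5.47 on GT/M2TAD, 5.57 on siCtrl and 5.96 on siEp300. MEF was the highest array. The difference reached 2-fold on GT/M1, at -1.07, and was between -0.80 and -0.31 on the others. After median centring it reached 2-fold on 4 of the 6 arrays. Hoxb7 went the other way by less, at 6.23 on MEF and between 6.72 and 6.96 on the 6 transduced arrays. Hoxb5 was at 4.98 on MEF and between 3.88 and 4.71 elsewhere. Hoxb1, Hoxb3, Hoxb6, Hoxb8, Hoxb9 and Hoxb13 lay between 2.01 and 5.22. The paralogues Hoxa2 and Hoxb2 stood on opposite sides of MEF on 5 of the 6 transduced arrays, the exception being GT/M2TAD. Both were below the background limit on all 7 arrays, and the 6 comparisons share the MEF array. On GT/M1, Hoxb2 was also below the negative-control median of 5.37. How often other pairs of genes part in this way was not counted.

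**Figure D2:**
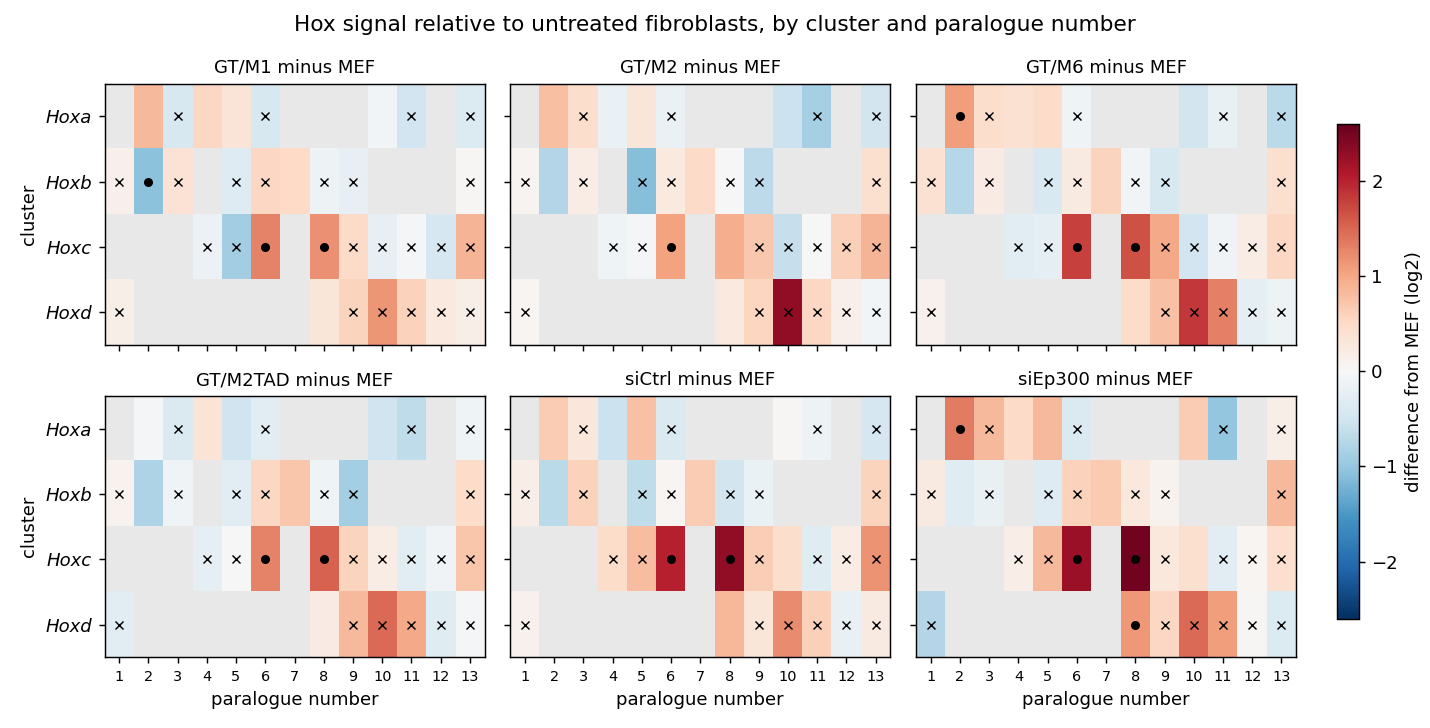
Log2 difference from MEF (colour, red higher, blue lower) for each transduced array, by cluster (rows) and paralogue number (columns). Black dots mark genes at least 2-fold apart by the rule of size, crosses mark genes whose higher signal was under the floor, and plain grey cells have no gene analysed here; the dots fall mainly on Hoxc6 and Hoxc8, and the dark Hoxd10 cells carry crosses.

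Of the 33 genes, GT/M1 had 2 at least 2-fold higher (12.5% of all genes were) and 1 lower (9.52% of all). On GT/M2, 1 was higher (13.6%) and 0 lower (8.34%). On GT/M6, 3 were higher (13%) and 0 lower (8.79%). On GT/M2TAD, 2 were higher (14%) and 0 lower (9.5%). On siCtrl, 2 were higher (10.9%) and 0 lower (10.9%), and on siEp300, 4 were higher (13.4%) and 0 lower (9.29%). As shares of 33, the higher counts were 3.03% to 12.1%. Each was below the share of all genes, but few Hox genes could pass the floor and the gap was not tested. Among genes below the background limit on both arrays of the comparison, 5.32% to 8.42% were called higher and 3.97% to 5.52% lower. Median Hox differences were 0.14, 0.13, 0.20, -0.046, 0.30 and 0.42 in the same order, beside 0.089, 0.072, 0.077, 0.091, 0.012 and 0.12 over all genes. After median centring, which moved the all-gene medians to between -0.25 and -0.059, the Hox medians were -0.16, -0.19, -0.12, -0.30, 0.22 and 0.18. The first 3 thus changed sign, which they did not after quantile normalization or level-dependent centring.

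By cluster, the Hoxd medians as deposited were 0.32, 0.25, 0.49, 0.21, 0.31 and 0.53. On GT/M2TAD that median was -0.049, -0.042 and -0.040 after median centring, quantile normalization and level-dependent centring, and on GT/M2 it was -0.075 after median centring. The Hoxc medians were -0.061, 0.62, 0.20, 0.20, 0.63 and 0.42, the Hoxb medians 0.025, 0.081, 0.20, -0.082, 0.050 and 0.23, and the Hoxa medians -0.21, -0.17, 0.14, -0.33, -0.051 and 0.57. After median centring the Hoxb medians lay between -0.34 and -0.0083. The Hoxc medians on GT/M6 and GT/M2TAD then became -0.13 and -0.060, and the Hoxa median on GT/M6 -0.18. Below the negative-control median on every array were 3 of 8 Hoxa, 5 of 9 Hoxb, 4 of 9 Hoxc and 6 of 7 Hoxd genes. By paralogue number, the deposited medians of the central genes (0.33, 0.25, 0.36, 0.11, 0.71 and 0.76) were above those of the anterior genes of number 1 to 4 (0.14, 0.063, 0.30, -0.17, 0.23 and 0.20). They were also above those of the posterior genes (0.025, 0.13, -0.087, -0.046, 0.23 and 0.28). After quantile normalization and level-dependent centring the central median was below both others on GT/M1 and GT/M2, and below the posterior one on GT/M2TAD. These classes were not tested against each other, and these scalings of them were added after the values were seen.

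In all, 12 of the 33 genes (36.4%) were above MEF on all 6 arrays, against 28% of all genes, and 4 (12.1%) were below it on all 6, against 21.2%. The 12 were Hoxb1, Hoxb6, Hoxb7, Hoxb13, Hoxc6, Hoxc8, Hoxc9, Hoxc13, Hoxd8, Hoxd9, Hoxd10 and Hoxd11. The 4 were Hoxa6, Hoxa11, Hoxb2 and Hoxb5. After median centring each count was 8, against 18.7% and 32.1% of all genes. The 6 comparisons share the MEF array, so the counts are not independent of each other. Of the 12, Hoxb1, Hoxb6, Hoxb13, Hoxc13, Hoxd9, Hoxd10 and Hoxd11 were below the negative-control median on all 7 arrays. So were Hoxa6 and Hoxa11 of the 4. The shares over equally low genes were not counted.

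Between the Mef2c forms no Hox gene was 2-fold apart by the rule. Between GT/M2 and GT/M1, 0 were at least 2-fold higher (1.9% of all genes) and 0 lower (1.39%). Counts were 0 and 0 for GT/M6 against GT/M1 (0.646% and 0.292%), for GT/M6 against GT/M2 (1.85% and 1.71%) and for GT/M2TAD against GT/M2 (2.96% and 3.33%). The median Hox differences were -0.060, 0.15, 0.071 and -0.035. Hoxc6 was 0.72 and Hoxc8 0.71 higher on GT/M6 than on GT/M2. With the MyoD domain, Hoxc6 was 0.24 and Hoxc8 0.58 higher than on GT/M2, while Hoxa2 was at -0.82 and Hoxa5 at -0.83. With no replicates, 1 array of each form cannot show whether such differences exceed the spread between cultures.

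With siRNA against Ep300, 1 Hox gene was at least 2-fold higher than on siCtrl (1.93% of all genes) and 0 lower (0.39%). That gene was Hoxa4, at 6.06 against 5.01, a difference of 1.04 between signals below the background limit. It was under 2-fold after median centring, quantile normalization and level-dependent centring. Hoxc6 was 0.22 and Hoxc8 0.21 higher on siEp300, Hoxa2 0.69, Hoxb8 0.75 and Hoxa10 0.63. Hoxd1 was at -0.87, Hoxa11 at -0.86, Hoxb3 at -0.79 and Hoxc13 at -0.74. Of these, Hoxb8, Hoxd1, Hoxa11 and Hoxc13 had signals below the negative-control median on both arrays. The Hox median was 0.21 and that of all genes 0.14.

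The 2 siRNA arrays stood together on several Hox genes. Both were above all 4 transduced arrays without siRNA for 11 of the 33 genes (33.3%), against 14.9% of all genes. These were Hoxa5, Hoxa10, Hoxb2, Hoxb9, Hoxb13, Hoxc4, Hoxc5, Hoxc6, Hoxc8, Hoxc10 and Hoxd8. Of them only Hoxc6 and Hoxc8 reached the background limit on any array. Hoxb9, Hoxb13 and Hoxc4 were below the negative-control median on all 7. The share over equally low genes was not counted. Both siRNA arrays were below all 4 others for Hoxd9 alone, against 20.9% of all genes. The count above was 12 (22% of all genes) after median centring and 11 (16.7%) after quantile normalization. It was chosen after the values were seen, as were the comparisons that follow, made with both forms because the labels conflict. Against GT/M2TAD, siCtrl had 1 Hox gene at least 2-fold higher (Hoxa5; 3.04% of all genes) and 0 lower (6.38%), and siEp300 had 3 higher (Hoxa2, Hoxa5 and Hoxa10; 3.53%) and 0 lower (3.66%). Against GT/M2, siCtrl had 2 higher (Hoxc8 and Hoxc10; 5.3%) and 0 lower (11.2%), and siEp300 had 4 higher (Hoxa10, Hoxc6, Hoxc8 and Hoxc10; 6.08%) and 0 lower (7.31%). Against GT/M2TAD, Hoxc6 was 0.73 higher on siCtrl and 0.95 on siEp300, and Hoxc8 0.77 and 0.99. Against GT/M2, Hoxc6 was 0.97 and 1.19 higher and Hoxc8 1.35 and 1.57.

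Summed fibroblast markers were also higher on the siRNA arrays than on the other 4 transduced arrays. Of 9 markers measured, 8 were above the background limit on MEF, GT/M6, siCtrl and siEp300, 6 on GT/M1 and GT/M2 and 7 on GT/M2TAD. Lum was below it on all 7. Thy1, singled out after its values were seen, was highest on GT/M2TAD, at 15.15 on GT/M2TAD against 12.89 on siCtrl and 12.62 on siEp300. Their mean log2 signal was 13.95 on MEF, 11.49 to 12.48 on the other 4 transduced arrays, 14.42 on siCtrl and 14.33 on siEp300. The log2 of their summed signal was 19.84 on MEF, 19.05 to 19.17 without siRNA, and 19.91 and 19.62 with it. For the 8 cardiomyocyte markers the log2 of the summed signal was 10.01 on MEF, 17.95 to 19.22 without siRNA, and 17.72 and 18.07 with it. Macrophage markers were below the limit on all 7 arrays, skeletal muscle markers on all but the siRNA arrays, where 1 of 6 was above it. Endothelial markers had 1 of 5 above it on MEF and 0 elsewhere, epithelial markers 0 or 1 of 5 and neural markers 1 to 3 of 5. The part of these cells in the Hox values was not tested.

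**Figure D3:**
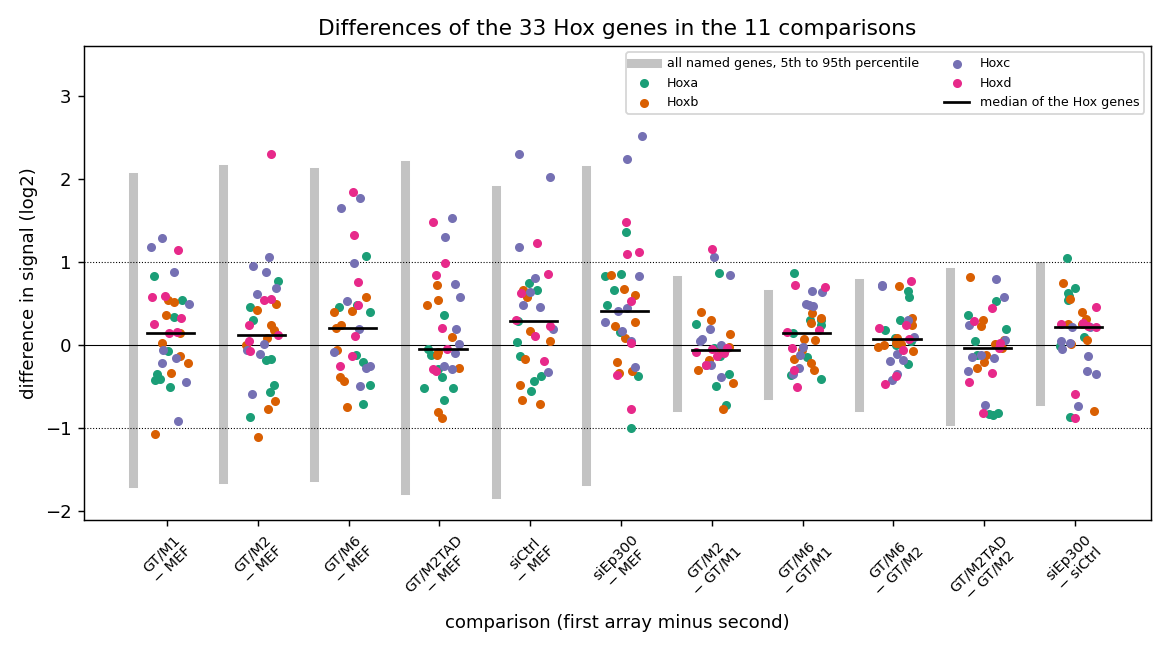
Log2 difference (vertical axis) of each of the 33 Hox genes (points, coloured by cluster) in the 11 comparisons (horizontal axis), with the Hox median (black line) and the 5th to 95th percentile of all named genes (grey bar). Dotted lines mark 2-fold; most Hox genes lie within the grey bars, and the comparisons with MEF are wider than those between transduced arrays.

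Genes that act with or on Hox genes were counted from lists chosen for this account, by the same rule of size. In the comparisons with MEF, 10.9% to 14% of all genes were called higher and 8.34% to 10.9% lower. Among the noncoding RNAs of the clusters and the flanking Evx genes, 4 of 17 were measured, and Hoxd3os1 was at least 2-fold above MEF on all 6 arrays. It was at 4.68 on MEF, 5.80, 6.32 and 6.25 with isoforms 1, 2 and 6, 5.93 on GT/M2TAD, 5.84 on siCtrl and 6.45 on siEp300. All 6 transduced arrays were above MEF, and all 7 signals were below the background limit. After median centring it was at least 2-fold higher on 4 of the 6. The other 3 were at least 2-fold apart from MEF on 0 arrays. Hoxd3os1 is named after its values were seen.

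The cofactors Pbx, Meis and Pknox bind DNA together with Hox proteins, and 8 of 9 listed were measured. Pbx3 was at 9.51 on MEF and between 7.51 and 8.21 on the transduced arrays, and Meis2 at 12.25 and between 10.68 and 11.25. Both were at least 2-fold lower than MEF on all 6 arrays. Pbx2 differed from MEF by -0.42 to 0.68 and Pbx4 by -0.43 to 0.79, each above MEF on 4 arrays. Neither was at least 2-fold apart from MEF on any array. Meis1 was at 9.97 on MEF and 9.83 to 9.94 on the native isoforms, but at 8.85 on GT/M2TAD, 8.31 on siCtrl and 8.82 on siEp300. Over the 6 arrays, 0 to 3 of the 8 were higher (0% to 37.5%, beside 10.9% to 14% of all genes) and 2 or 3 lower (25% to 37.5%, beside 8.34% to 10.9%). The higher calls were of Meis3, Pknox1 and Pknox2, named after their values were seen, each on 3 arrays and each below the background limit on all 7. After median centring Meis3 kept 0 of its 3 calls, Pknox1 2 and Pknox2 2.

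Polycomb genes were counted because the complex keeps silent Hox genes silent. Of 23 measured, 3 to 5 were at least 2-fold higher than MEF on the 6 arrays (13% to 21.7%, beside 10.9% to 14% of all genes) and 3 to 8 lower (13% to 34.8%, beside 8.34% to 10.9%). Ezh2, the methyltransferase that marks Hox chromatin, was at 10.76 on MEF, 8.40, 8.56 and 8.62 with isoforms 1, 2 and 6, 7.85 on GT/M2TAD, 7.35 on siCtrl and 7.64 on siEp300. Its paralogue Ezh1, common in cells that do not divide, was at 8.43 on MEF and between 10.51 and 11.33 on the others. Phc2 was at 12.04 on MEF and between 9.24 and 10.03. Of 14 Trithorax and activator genes, 1 to 3 were higher (7.14% to 21.4%, beside 10.9% to 14% of all genes) and 1 to 7 lower (7.14% to 50%, beside 8.34% to 10.9%). The elongation partner Mllt3 was 1.42 to 3.30 above MEF, Wdr5 at -1.96 to -1.64 and Dpy30 at -2.55 to -0.32. Their part in the Hox values was not tested.

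Upstream and positional regulators were read next. Gdf11, a ligand that sets the trunk to tail transition, was at 6.60 on MEF, 7.57, 8.23 and 8.01 with isoforms 1, 2 and 6, 8.47 on GT/M2TAD, 8.78 on siCtrl and 9.76 on siEp300. It was above the background limit on the siRNA arrays only. Of 10 early axial regulators it was the one gene called higher than MEF (0% to 10%, beside 10.9% to 14% of all genes). That held on 5 of the 6 arrays, the exception being GT/M1. None was called lower (0%, beside 8.34% to 10.9%). Gbx2, at 1.10 on GT/M1, and Lin28b, at -1.07 on GT/M2, were under the floor and so not called. Both are named after their values were seen. Of 17 retinoic acid genes, 4 or 5 were higher (23.5% to 29.4%, beside 10.9% to 14% of all genes) and 3 to 5 lower (17.6% to 29.4%, beside 8.34% to 10.9%). Crabp1, which binds retinoic acid in the cytoplasm, was 5.73 to 8.65 below MEF on the log2 scale. Dhrs3, which reduces retinal, was 2.74 to 5.35 above it, and Rdh10, which makes retinal, 0.38 to 3.0 above it.

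Of 30 regulators of limb and body wall position, 0 to 2 were at least 2-fold higher than MEF (0% to 6.67%, beside 10.9% to 14% of all genes) and 6 to 8 lower (20% to 26.7%, beside 8.34% to 10.9%). Most of the list was not called either way. Prrx1, a homeobox gene of limb mesenchyme, was at 16.32 on MEF, 11.98 to 13.16 without siRNA, 15.22 on siCtrl and 14.72 on siEp300. Prrx2 was at 11.96, 7.66 to 9.09, and 9.72 and 10.10. Tbx18 was at 7.59 on MEF, 9.98, 8.61 and 10.21 with isoforms 1, 2 and 6, 8.27 on GT/M2TAD, 7.19 on siCtrl and 6.67 on siEp300. Of 9 genes listed as head and anterior regulators, 0 were higher (beside 10.9% to 14% of all genes). From 2 to 6 were lower (22.2% to 66.7%, beside 8.34% to 10.9%). Dlx2, a homeobox gene of the pharyngeal arches, was at 10.52 on MEF and between 5.05 and 6.12 on the transduced arrays. Pax3 was at 8.93 and between 7.58 and 8.23. Between siEp300 and siCtrl, 0 genes of these lists were at least 2-fold apart by the rule of size. Over all genes, 1.93% were higher on siEp300 and 0.39% lower. Pax6, named after its values were seen, was 1.81 higher on siEp300 but under the floor.

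**Figure D4:**
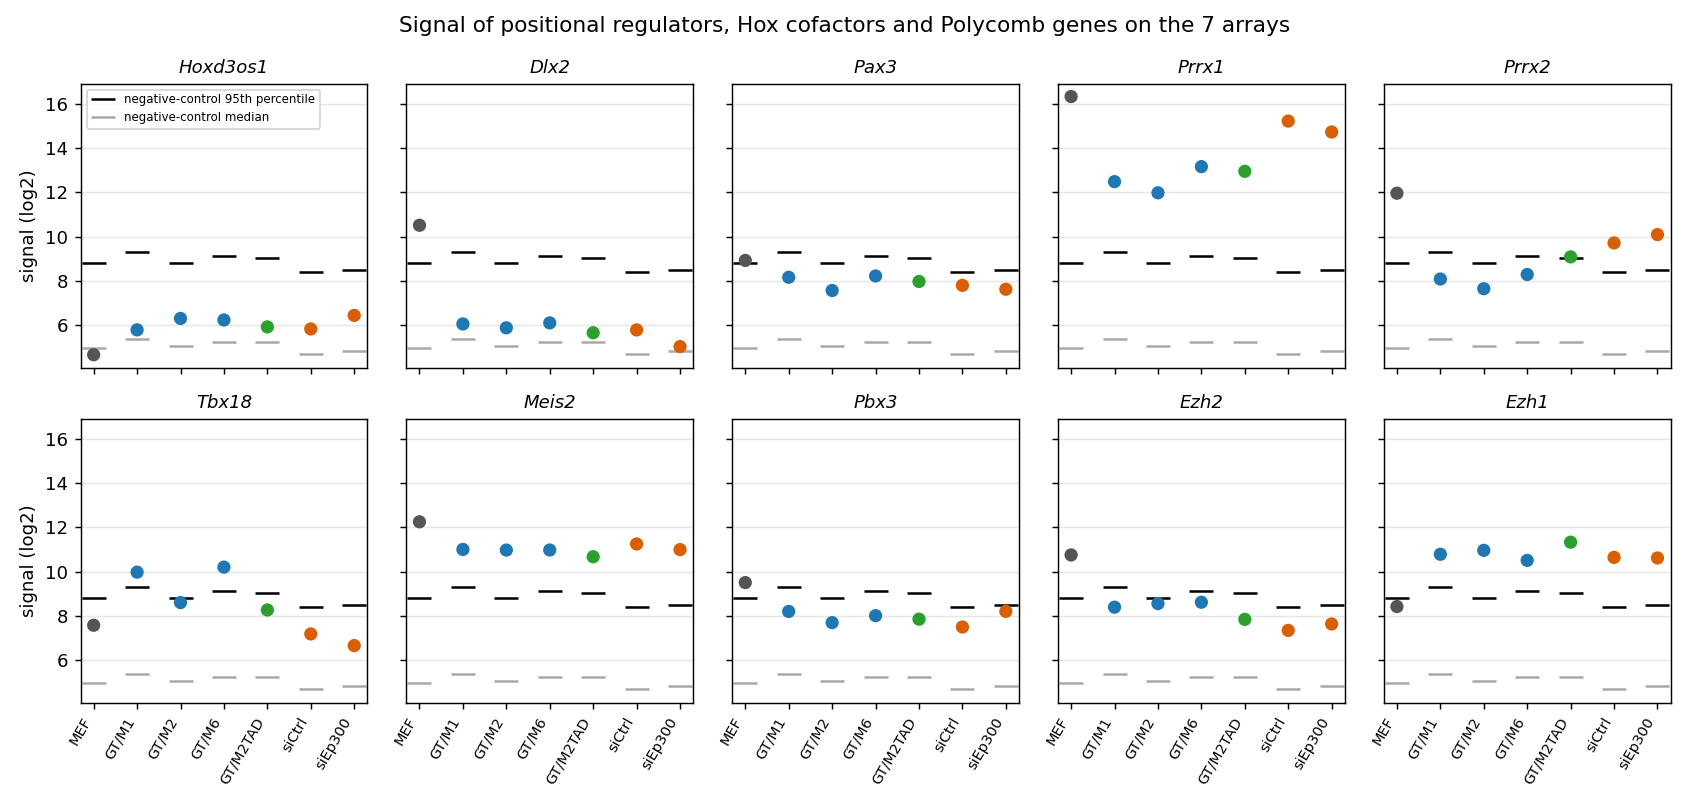
Log2 signal (vertical axis) of Hoxd3os1, of positional regulators, of Hox cofactors and of Polycomb genes on each of the 7 arrays (horizontal axis, 1 point per array: grey MEF, blue native isoforms, green GT/M2TAD, orange siRNA), with the negative-control 95th percentile (black dashes) and median (grey dashes). Dlx2, Prrx1, Prrx2, Meis2, Pbx3 and Ezh2 are highest on MEF, and Ezh1 and Hoxd3os1 are lowest there.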

How the data were processed

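One array of each of 7 groups was analysed. The deposited values were log2 signals made by the authors with Affymetrix Expression Console 1.4, per the submitters' processing notes, and SST-RMA, per the series text. Its settings and genome build are not given in the sources used here. Arrays scaled this way may not show a common shift of expression, and signals near background understate differences.

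Of 28846 probe sets, 19572 had 1 gene symbol, 0 several, and 9274 no listed gene; for 55 genes with several sets the one with the highest mean was used. Members are all probe sets matching the rule. Those reaching the negative-control 95th percentile on an array, or 2-fold apart in 1 of the 11 planned comparisons, are given on every array. Others are given chiefly by range. These include Hoxa5, Hoxa10 and Hoxc10, which were 2-fold apart only in comparisons added after the values were seen. Of other lists, at most 3 genes above that limit with the largest differences, and Ezh2, Pbx and Meis genes, are named; names outside this rule are marked as chosen after their values were seen. Members and lists were chosen with earlier results of these data known. With 1 array per group there is no test; the number of arrays limits precision. Alternatives were median centring, quantile normalization, level-dependent centring (lowess, fraction 0.3), other floors, 1.5-fold and averaged probe sets. Python 3.11.15 with pandas 2.3.3 and statsmodels 0.14.6 was used, and the count rule was tested on simulated data. That simulation shifted only genes well above the all-gene median, by more than 2-fold and with an assumed noise. It therefore does not show how the rule performs on signals near background.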

Additional observations from a re-analysis of the deposited data

How the results depend on the processing

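Deposited values were compared with other scalings, floors and a lower fold. Counts in the 11 comparisons were of 0 to 4 genes. Some moved with these settings and others did not, and the cause was not tested. Not every count that moved is listed, so a count left out here may also have moved. Against MEF, the higher counts on GT/M1 and GT/M2 (2 and 1) were 0 and 0 after median centring, and 1 and 0 after both quantile normalization and level-dependent centring. After each of these 3 the lower counts on GT/M2, GT/M6 and GT/M2TAD were 1 in place of 0. With the floor at the negative-control 95th percentile the higher counts were 1 on GT/M1, 1 on GT/M6, 1 on GT/M2TAD and 2 on siEp300, and the lower count on GT/M1 was 0. Without a floor they were 2 higher and 1 lower on GT/M2, 5 higher on GT/M6, 4 higher on siCtrl, and 2 higher for GT/M2 against GT/M1. At 1.5-fold they were 3, 6 and 7 higher on GT/M2, siCtrl and siEp300, and 1 lower on each of GT/M2, GT/M6, GT/M2TAD and siCtrl. At 1.5-fold there were also 1 lower for GT/M2 against GT/M1, 2 higher for GT/M6 against GT/M2, 2 lower for GT/M2TAD against GT/M2 and 3 higher for siEp300 against siCtrl. That last count, 1 as deposited, was 0 under each of the 3 scalings and with the higher floor. Without a floor Hoxd10 also passed on GT/M1 (1.14), GT/M2TAD (1.48) and siEp300 (1.48). At 1.5-fold Hoxa2 also passed on GT/M1 (0.83) and Hoxb7 on GT/M2TAD (0.72). Hoxd8 was no longer called on siEp300 under any of the 3 scalings.

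Median Hox differences from MEF after median centring were -0.16, -0.19 and -0.12 with isoforms 1, 2 and 6, and -0.30 on GT/M2TAD. On siEp300 they were 0.18, 0.19 and 0.19 after median centring, quantile normalization and level-dependent centring, and for siEp300 against siCtrl 0.050, 0.034 and 0.037. Restricted to genes above background on the comparison array, which left Hoxc6 alone, they were -0.23 for GT/M2 against GT/M1, 0.49 for GT/M6 against GT/M1, 0.24 for GT/M2TAD against GT/M2, and 0.72 for GT/M6 against GT/M2. This restriction gave no value against MEF, where no Hox gene was above background. In alternatives chosen after seeing the data, 8 genes were below MEF on all 6 arrays after median centring. No paired analysis was possible because each group is 1 array and no replicate numbers are shared.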
